A study of Rattus norvegicus with 3 samples.

Results

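The 4 genes described here are Ensembl rat identifiers chosen for glucose use and the response to low oxygen: ENSRNOG00000018630, ENSRNOG00000013009, ENSRNOG00000007284 and ENSRNOG00000019598. The list they came from means them, in that order, as Gapdh, Ldha, Slc2a1 and Vegfa. The arrays carry Ensembl identifiers only, and the RefSeq gene table used here matched 0 of the 20174 identifiers on the array, so these names were not checked. They are used below as labels for the probes. All 4 identifiers were found, each with 1 probe, among the 20174 gene probes of each array and in the deposited value table.

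Gapdh and Ldha are enzymes of glycolysis. Glyceraldehyde-3-phosphate dehydrogenase, the product of Gapdh, catalyses a step in the middle of the pathway, and its transcript is widely used as a reference for other transcripts. Lactate dehydrogenase A, the product of Ldha, turns pyruvate into lactate and so renews the NAD+ that glycolysis needs. Slc2a1 encodes GLUT1, the facilitative transporter that brings glucose into many cell types, and Vegfa encodes a secreted growth factor that acts on blood vessels. Ldha, Slc2a1 and Vegfa are textbook targets of the transcription factor HIF-1 under low oxygen. In developing limb skin of the mouse, nerves and the Schwann cells around them are a known source of VEGF for the arteries that follow them.

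The material was 3 samples of rat Schwann cell precursors, the early glia of peripheral nerve, cultured in modified Sato medium. Each was hybridized, as Cy5-labelled amplified RNA, to 1 single-colour 3D-Gene array. The labels call the culture conditions normal in all 3 and give no oxygen level, strain, age or number of animals, so the samples form 1 group with no treated or low-oxygen counterpart. One protocol text names oligodendrocyte precursors instead, and without symbols no marker gene could be placed to check the cell type. Nothing states that the samples came from separate cultures, and their spread may be technical. No gene probe had an identical spot intensity on any pair of arrays, with 0 of 20174 for each pair.

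All 4 genes gave signal above background on every array, but at very different brightness. The threshold for background lay 2 SD over the mean of the blank spots of an array, and a spot with a failed scanner gain was not called. That threshold was 56.8, 58.1 and 65.4 intensity units in replicates 1, 2 and 3, and 16229 of 20174 gene probes passed it on all 3 arrays. Brightness depends on the binding and length of each probe as well as on the transcript, so the ranks below place each spot among the spots of its array and do not order the 4 transcripts by abundance.

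The Gapdh probe, ENSRNOG00000018630, had spot medians of 10063, 10007 and 7546 units in replicates 1, 2 and 3, which were 182, 176 and 118 times the mean of the blank spots. Replicates 1 and 2 lay close together and replicate 3 was lower before any scaling. It stood at rank 163, 189 and 159 from the brightest of the 20174 gene probes, so that 0.803%, 0.932% and 0.783% of them were brighter. It was near the top on each array, but outside the 100 brightest probes.

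The Ldha probe, ENSRNOG00000013009, had spot medians of 9917, 7677 and 6904 units, or 179, 135 and 108 times the blank mean. Replicate 1 was the highest and replicate 3 the lowest of these unscaled values. Its rank was 169, 245 and 180 in replicates 1, 2 and 3, with the lowest place in replicate 2. The share of gene probes brighter than it was 0.833%, 1.21% and 0.887%.

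The Slc2a1 probe, ENSRNOG00000007284, was in the upper part of the range but well below the enzymes' probes. Its spot medians were 719.7, 504 and 516 units, which were 13.0, 8.85 and 8.09 times the blank mean. Replicate 1 was again the highest, and the other arrays were close to each other. Its rank was 2265, 2811 and 2371, with 11.2%, 13.9% and 11.7% of gene probes brighter.

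The Vegfa probe, ENSRNOG00000019598, was dim. Its spot medians of 103, 90.1 and 105 units were 1.86, 1.58 and 1.64 times the blank mean, and replicate 2 was the lowest. It stood near the middle of all gene probes, with 44.1%, 46.3% and 42.0% of them brighter in replicates 1, 2 and 3. Even so, its signal lay above the mean of the blank spots. The excess was 64.7, 56.0 and 53.4 times their SD, which was taken after trimming 5% of them at each end. The scanner's local background beside the Vegfa spot was 91.0, 62.2 and 80.1 units in replicates 1, 2 and 3. These values were themselves above the background threshold of 56.8, 58.1 and 65.4 units. Detection of Vegfa over its local background was not tested. Of the 96 negative control spots per array, 0 reached the Vegfa spot on any array, the brightest of them being 65.8, 65.0 and 69.3 units. Blank spots as bright as Vegfa numbered 1 of 1344, 0 of 5808 and 0 of 1344 on the same arrays, and 0 of the spots labelled no probe were that bright.

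**Figure D1:**
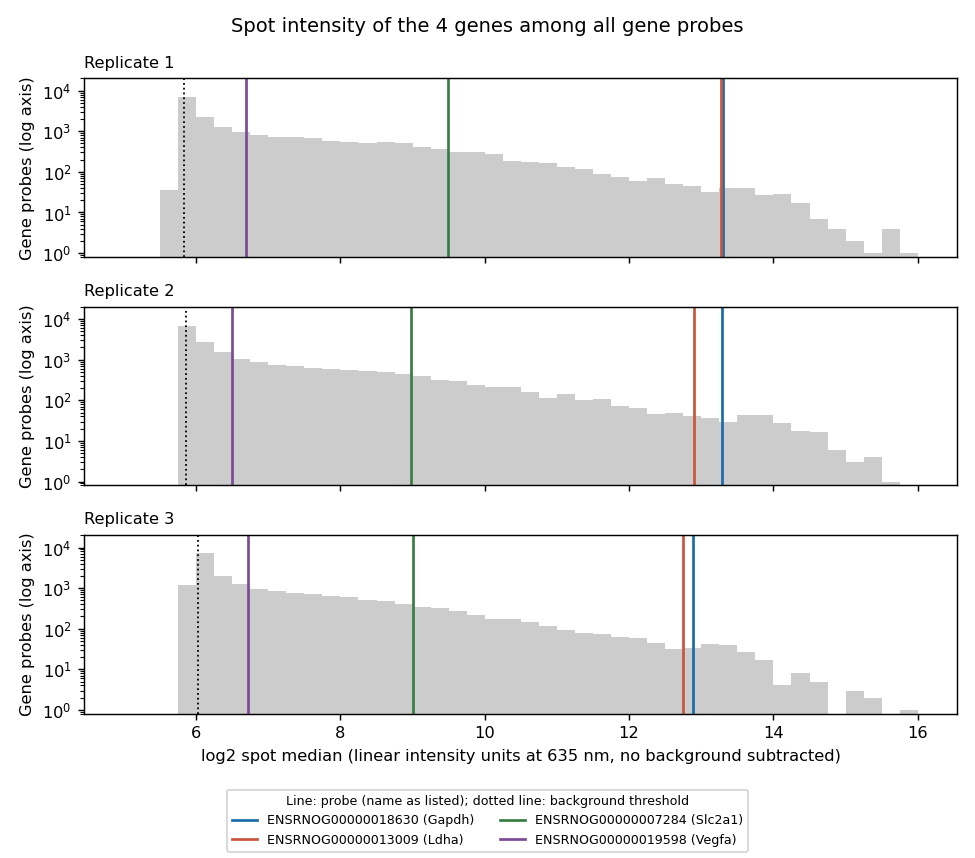
The horizontal axis gives the log2 spot median without background subtraction, the grey bars count gene probes per quarter-unit bin on a log axis, and there is 1 panel per array. The coloured lines mark the 4 probes: Gapdh and Ldha lie in the bright tail, Slc2a1 on the upper slope and Vegfa near the dim bulk, to the right of the dotted background threshold on each array.

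As a share of all signal above the blank mean, the 4 probes together carried 0.235%, 0.204% and 0.229% in replicates 1, 2 and 3. The Gapdh share was nearly constant at 0.114%, 0.113% and 0.116%. The Ldha share was 0.113%, 0.0863% and 0.106%, lowest in replicate 2. The Slc2a1 share was 0.00758%, 0.00506% and 0.00699%, and the Vegfa share was 0.000544%, 0.000376% and 0.000636%. All 4 shares were thus lowest in replicate 2, by little for Gapdh.

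To compare the arrays, spot medians were background-corrected with an offset of 50 units, quantile normalized over the gene probes and put on the log2 scale. On that scale Gapdh was 13.24, 13.05 and 13.27 in replicates 1, 2 and 3 (mean 13.19 ± 0.12, SD, n = 3). Ldha was 13.20, 12.69 and 13.13 (13.01 ± 0.28, SD, n = 3). Its replicate 2 value stood apart from the other arrays, which were close to each other. Slc2a1 was 9.30, 8.94 and 9.22 (9.16 ± 0.19, SD, n = 3), also with replicate 2 below a close pair. Vegfa was 6.54, 6.43 and 6.65 (6.54 ± 0.11, SD, n = 3), with its arrays evenly spaced.

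The highest and lowest arrays differed by 0.22 for Gapdh, 0.52 for Ldha, 0.36 for Slc2a1 and 0.22 for Vegfa on the log2 scale, which is 1.16-fold, 1.43-fold, 1.28-fold and 1.16-fold. None of the 4 reached a 2-fold difference. Among all 16229 tested gene probes 101 (0.622%) did, so 0 of 4 is close to that background. In this scaling the median difference over all 16229 was 0.18, and each of the 4 lay above it. A wider difference than that of Gapdh was found for 42.4% of them, than Ldha for 9.29%, than Slc2a1 for 21.6% and than Vegfa for 42.2%. This standing depended on the processing. In the deposited table the median was 0.58, and each of the 4 lay below it. The offset shrinks differences of dim probes such as Vegfa. With an offset of 16 the Vegfa range was 0.34, and without an offset, after subtracting the blank mean, it was 0.50. The ranges of Gapdh and Ldha stayed at 0.22 and 0.52 in both settings. The median over all tested gene probes rose too, to 0.26 and 0.45, above the Gapdh range in both. Without an offset it was also above the Slc2a1 range of 0.40. A wider range than that of Vegfa was found for 35.2% and 43.0% of tested gene probes in these settings.

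The spread of a gene was tested with limma, by comparing its variance over the 3 arrays with the variance of genes of the same level, with Benjamini-Hochberg adjustment over all 16229 gene probes. None of the 4 genes passed at an adjusted p under 0.05, where 2 of 16229 (0.0123%) did. The adjusted p by limma was 0.995 for each of the 4. The unadjusted p by limma's fit across all genes was 0.788 for Gapdh, 0.287 for Ldha, 0.474 for Slc2a1 and 0.455 for Vegfa, and 0 of the 4 were under 0.05, against 931 of all tested gene probes (5.74%). A p above the threshold does not show that a gene was constant over the samples.

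Gapdh had a narrower and Ldha a wider spread than the median of genes of like brightness after quantile normalization. In the deposited table the range of Gapdh was instead wider than that of Ldha. The tested gene probes were divided by level into 10 classes of equal size. Both enzymes' probes fell in the brightest class, 1623 genes whose median SD was 0.19 on the log2 scale. Of these, 79.4% had a wider SD than Gapdh and 24.1% a wider SD than Ldha. In the deposited table Gapdh had the widest range of the 4, 0.52 on the log2 scale, with 56.0% of tested gene probes of any level wider. Ldha had 0.26 there, with 85.2% wider. The median range over all tested gene probes was 0.58 in that table, and genes of like brightness were not compared in it. Slc2a1 was in class 9 from the dimmest, where 44.2% of genes had a wider SD and the median was 0.17. Vegfa was in class 5, where 46.0% had a wider SD and the median was 0.10. Within an array, the 24 copies of positive control 1 had a log2 SD of 0.11, 0.085 and 0.12 in replicates 1, 2 and 3, while for positive control 2 the SD was 0.18, 0.099 and 0.21. These are unnormalized values of spots about as bright as Gapdh and Ldha or brighter, and they give the scatter of single spots on an array, of the same order as the spread of Gapdh between arrays.

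**Figure D2:**
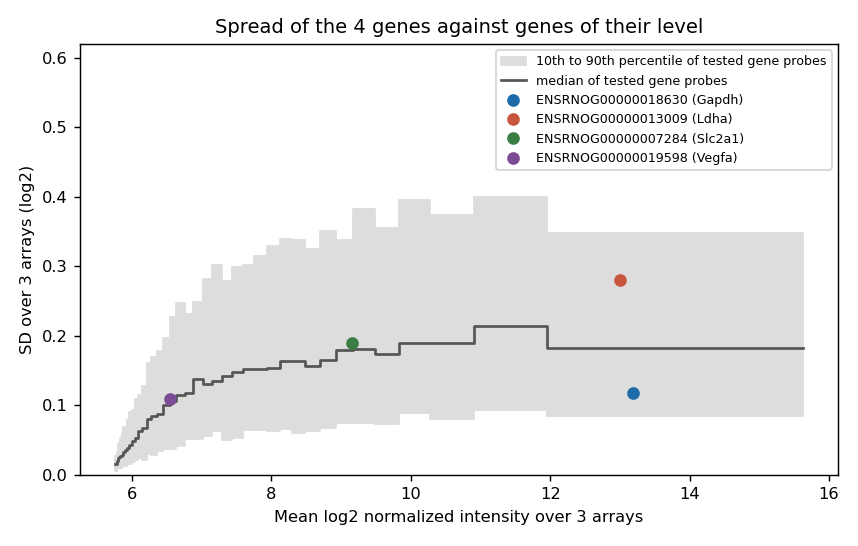
Each coloured point gives the mean log2 normalized intensity of a gene over the 3 arrays (horizontal) and its SD over them (vertical). The grey band spans the 10th to 90th percentile and the line the median of the 16229 tested gene probes in bins of equal size by level; Gapdh lies below the line at SD 0.12, Ldha above it at 0.28, and Slc2a1 and Vegfa close to it.

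After quantile normalization, replicate 2 was the lowest array for all 4 genes. The deviation of replicate 2 from the gene's own mean was -0.13 for Gapdh, -0.32 for Ldha, -0.21 for Slc2a1 and -0.11 for Vegfa on the log2 scale. Replicate 1 was the highest array for Ldha and Slc2a1, and replicate 3 for Gapdh and Vegfa. Among all tested gene probes replicate 2 was the lowest array for 39.0%, against 28.4% for replicate 1 and 32.6% for replicate 3. It was also the highest array for 39.9% of them, against 31.4% for replicate 1 and 28.8% for replicate 3. Without replicate 2, the ranges were 0.035 for Gapdh, 0.083 for Ldha, 0.072 for Slc2a1 and 0.11 for Vegfa, where the median over all tested genes was 0.072; leaving out the lowest array narrows a range by construction. The array farthest from the middle one was replicate 2 for Gapdh, Ldha and Slc2a1 and replicate 3 for Vegfa, whose range was also 0.11 without replicate 3. Replicate 2 differs from the others in the labels of empty positions too, with 809 spots labelled no probe and 5808 labelled blank. Each other array had 5273 and 1344. The positions of spots and of gene probes were the same on all arrays. The part of the array in the replicate 2 differences was not tested.

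The shared low in replicate 2 depended on how the arrays were scaled. With median scaling, 2 of the 4 genes (Slc2a1 and Vegfa) were lowest in replicate 2, against 27.5% of tested gene probes, and Gapdh was highest there. In the deposited value table, which the authors scaled so that the median of the listed probes is 25 on each array, only Vegfa was lowest in replicate 2, against 14.3% of tested gene probes. Gapdh had deposited values of 4670, 6531 and 4554 in replicates 1, 2 and 3, a 1.43-fold difference with replicate 2 highest, and Ldha had 4602, 5001 and 4163, also highest in replicate 2. Slc2a1 had 310.02, 293 and 275, and Vegfa had 22.2, 21.8 and 25.0. In that table the median of the tested gene probes was itself 0.17 above its mean over the arrays in replicate 2 on the log2 scale. Relative to that shift, the replicate 2 deviation was 0.17 for Gapdh, -0.04 for Ldha, -0.16 for Slc2a1 and -0.24 for Vegfa. Gapdh in replicate 2 therefore has opposite signs after quantile normalization and in the deposited table, with and without the shift taken off.

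**Figure D3:**
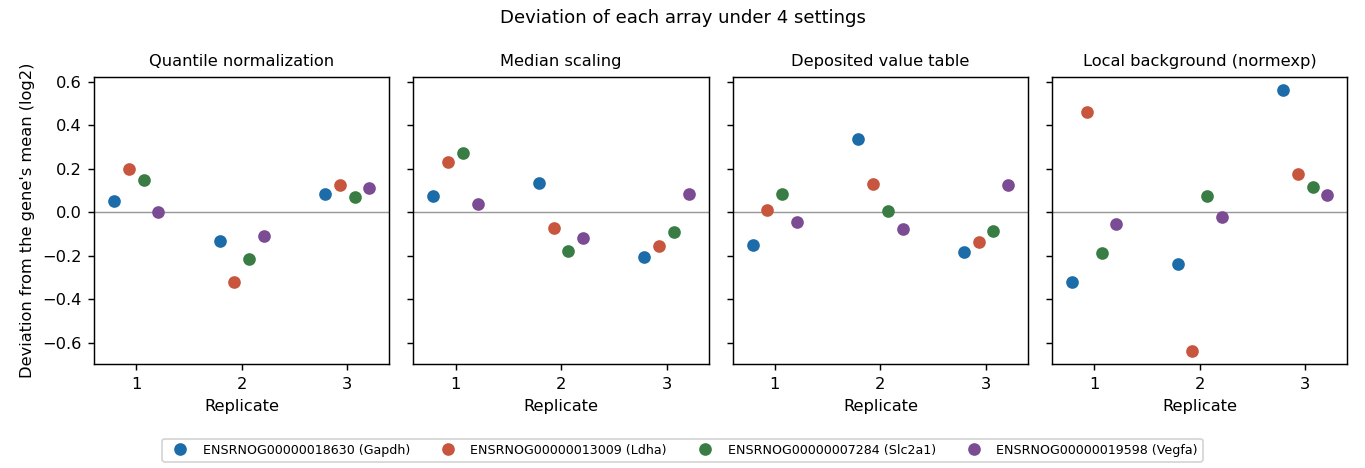
Each point is the deviation of 1 array from the gene's mean over the 3 arrays on the log2 scale, for the 4 genes (colours) under 4 ways of processing (panels). All 4 genes are lowest in replicate 2 after quantile normalization, Gapdh is highest there with median scaling and in the deposited table, and with local background subtracted Ldha ranges over 1.10 and Gapdh over 0.88.

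Ratios between probes of the same array do not depend on a scaling factor for the array. They were taken from spot medians with the blank mean subtracted, and only their change between arrays is described, since probes differ in binding. The log2 ratio of Ldha to Slc2a1 was 3.89, 4.09 and 3.92 in replicates 1, 2 and 3, which differed by at most 1.15-fold and was the steadiest of the 6 pairs. The ratio of Gapdh to Ldha was 0.021, 0.39 and 0.13, highest in replicate 2, with a 1.29-fold difference between the highest and lowest array. The ratio of Gapdh to Slc2a1 was 3.91, 4.48 and 4.05, a 1.48-fold difference. The ratio of Gapdh to Vegfa was 7.72, 8.23 and 7.51, a 1.65-fold difference, the widest of the pairs. In all 3 pairs with Gapdh the ratio was highest in replicate 2, so that relative to Gapdh the other genes were lowest there. The ratios of Ldha and of Slc2a1 to Vegfa differed by 1.38-fold and 1.27-fold, and both were lowest in replicate 3. No test was made of these ratios, and a correlation over 3 samples was not computed. Such ratios were not taken for other gene probes, so no background share is given. The part of differences between whole arrays that vary with brightness was not tested.

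The likeness of profiles was measured with a limit chosen for this purpose. Counting other tested gene probes whose 3 deviations lay within a Euclidean distance of 0.05 on the log2 scale, 410 of 16228 (2.53%) were that close to Gapdh, 100 (0.616%) to Ldha, 260 (1.60%) to Slc2a1 and 314 (1.93%) to Vegfa. Among the 4 genes themselves the nearest pair, Gapdh and Vegfa, was 0.065 apart and the farthest, Ldha and Vegfa, 0.29. Without symbols for the identifiers, none of these neighbours is named, and other genes of glycolysis, of the response to low oxygen and of VEGF reception could not be placed on the array.

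On each array the scanner's local background was higher beside the brighter of the members' spots. As a share of the spot, this background differed between arrays. Beside Gapdh it was 82.3%, 47.2% and 41.0% of the spot median in replicates 1, 2 and 3, and beside Ldha 64.7%, 38.7% and 41.0%. Beside Slc2a1 it was 83.3%, 21.4% and 53.2%, and beside Vegfa 88.4%, 69.0% and 76.3%. Over gene probes above 500 units the median share was 73.6%, 22.0% and 44.3%. With this background in the correction, the range was 1.10 (2.14-fold) for Ldha, 0.88 (1.84-fold) for Gapdh, 0.30 for Slc2a1 and 0.14 for Vegfa, the first pair wider and the second narrower than before. The median range over all tested gene probes was 0.29 there, and 2075 of 16229 reached 2-fold. In that setting Gapdh, Slc2a1 and Vegfa were lowest in replicate 1. The spots around the members were mostly dim, with a median of the 8 adjacent spots between 57.2 and 76.9 units. The brightest spot adjacent to Vegfa was 503, 498 and 385 units, brighter than Vegfa itself. For Slc2a1 the brightest adjacent spot was 767, 595 and 502 units, brighter than Slc2a1 itself in replicates 1 and 2. The part of such neighbours in the Vegfa and Slc2a1 signals was not tested.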

How the data were processed

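Total RNA, isolated by ISOGEN and RNeasy column, was converted to amino allyl aRNA for Cy5 coupling, per the labels' protocols. Per the file headers, the scanner files give the median intensity of each spot and of its local background at 635 nm, with nothing subtracted and a flag at each gain. Which image software was used is not given in the sources used here. In the deposited value table, an intensity on a linear scale, each column rises linearly with the spot median from 0 at 55.4, 56.9 and 63.8 units in replicates 1, 2 and 3, the blank mean, with a median of 25.

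Blank spots were trimmed by 5% at each end. The threshold called 17209, 17990 and 16944 gene probes, the same probes as the deposited table lists. Spot medians were corrected with limma's normexp (offset 50, no local background), gene probes were quantile normalized and log2 was taken. Spread was tested with limma through a fit of the mean alone, taking the upper tail p-value of the variance under a robust prior that follows level, with Benjamini-Hochberg adjustment at 0.05 over 16229 genes, after the step was tested on simulated data. R 4.3.3 with limma 3.58.1 gave the values; Python 3.11.15 with matplotlib 3.10.9 drew the figures.

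Members and lists were chosen with earlier results of these data known. The text names only the 4 members, since the rule names other genes only where a table gives symbols. Depth does not apply to arrays; their number, 3, limits the precision. Alternatives covered the offset, scaling, background, threshold, filter, block medians, the deposited table and leaving out each array.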

Additional observations from a re-analysis of the deposited data

How the results depend on the processing

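The count of members above background on all arrays (4) was the same at 3 SD and with the negative control threshold. Of all 20174 gene probes, 15482 and 13104 passed on all arrays in these settings, against 16229 at 2 SD. The count was also 4 without each array. A member called on all arrays stays called when an array is left out, so this could not lower the count. The count of members in the brightest 10% of gene probes (2, Gapdh and Ldha) was the same in each scaling tried. The offset, median scaling, blank subtraction and the deposited table's scaling keep the order of probes within an array, so they could not change it. Cyclic loess, block medians and local background could move these ranks, and the count stayed at 2. The count of members passing limma's variance test was 0 in each setting tried. Few of all tested gene probes passed it, from 0 of 15482 with the 3 SD threshold to 43 of 16341 without replicate 2. A count of 0 of 4 is close to that background and says little about the members. In addition, 0 members had a 2-fold range except with local background subtracted, where 1 did (Ldha). In that setting 2075 of 16229 tested gene probes did, against 101 after quantile normalization without local background. Members lowest in replicate 2 numbered 4 with cyclic loess or block medians subtracted, where 39.2% and 39.5% of tested gene probes were lowest there. The count was also 4 with an offset of 16 or the blank mean subtracted. Those settings keep the order of probes within an array before quantile normalization, so they could not change this count. It was 2 with median scaling, 1 in the deposited value table and 1 with local background subtracted. The shares of tested gene probes were 27.5%, 14.3% and 33.8% in these settings, and the cause was not tested. Leaving out replicate 1 or 3 left replicate 2 the lower array for all 4. After quantile normalization the order of arrays follows a probe's rank on each array, so leaving out an array could not change this. Without replicate 2 that count has no value. Vegfa, under 2 times the blank mean, is limited by signal over background. The pathway and cell type lists were not run, since no identifier matched a symbol. No paired analysis was possible because there is only 1 group.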
